A study of Mus musculus with 9 samples.

Results

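The 9 chemokine receptor genes Ccr1, Ccr2, Ccr6, Ccr7, Ccr9, Cx3cr1, Cxcr3, Cxcr4 and Cxcr5 were taken by symbol from the 24054 genes listed for each library, and were followed over 3 groups of splenic type 2 dendritic cells. All 9 were listed in every library and all 9 passed the filter on low counts. The cells came from spleens of C57BL/6 mice of the genotype Clec9a-Cre/Cre Rosa-tdTomato/tdTomato, in which Cre is driven from the Clec9a locus. Cre switches on the red protein TOMATO for good, so that TOM+ cells have a history of Clec9a expression. Live single cells that lacked autofluorescence and carried CD11c, MHCII and CD11b were sorted into TOM+ cDC2 and TOM- DC2 from mice at postnatal day 8 and into TOM+ cDC2 from adult mice. Adult library 91 came at an age of 9 weeks, and adult libraries 92 and 95 at 8 weeks. There were 3 libraries in each group, named by the number in their deposited names, which was 81, 91 or 92 in both young groups. Adult TOM- cells were not analysed here. A TOM- cell may also be one in which Cre had not yet acted, and all groups, adults included, carried Clec9a-Cre on both chromosomes. Spleens of young mice were pooled before the sort, and the labels do not tie libraries to animals, so that p-values measure the spread between these libraries.

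Chemokine receptors are proteins with 7 membrane-spanning helices that couple mainly to Gi proteins and steer a cell up a gradient of its chemokine ligand. In the spleen, CCR7 brings dendritic cells to the T cell zone, where stromal cells make CCL19 and CCL21, CXCR5 and its ligand CXCL13 mark the B cell follicle, and CXCR4 and CXCL12 hold cells in marrow and red pulp niches. CCR2, CCR1 and CX3CR1 are receptors known mostly from monocytes and their relatives, CCR6 answers to CCL20, CXCR3 to the interferon-induced ligands CXCL9 and CXCL10, and CCR9 to CCL25. Coupling to the G protein involves a conserved aspartate-arginine-tyrosine (DRY) motif at the inner face of the membrane.

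The members share that motif, and the 30 coding bases that begin with it are shown to let their likeness be read beside their unlike levels. Bases come from GENCODE transcripts on GRCm38, 5′ to 3′ on the coding strand, with the DRY codons in capitals.
Ccr7, chr11:99145609-99145638, minus strand: GACCGCTACgtagccatcgtccaggccgtg
Cxcr5, chr9:44513888-44513917, minus strand: GACCGGTACctagccatcgtccatgctgtt
Ccr6, chr17:8256364-8256393, plus strand: GACCGGTACattgccatcgtccaggcaacc
Ccr2, chr9:124106132-124106161, plus strand: GATAGGTACttggctattgttcatgctgtg
Ccr1, chr9:123964075-123964104, minus strand: GACAGATACctggccattgtccatgctgtg
Cx3cr1, chr9:120051927-120051956, minus strand: GACCGGTACcttgccatcgtcctggccgcc
Cxcr4, chr1:128589491-128589520, minus strand: GACCGGTACctcgctattgtccacgccacc
Cxcr3, chrX:101732587-101732616, minus strand: GACAGATATctgagcatagtgcacgccacc
Ccr9, chr9:123779681-123779710, plus strand: GACAGATACattgccattgtacaggccatg
Over these 30 bases Ccr7 shared 25 with Cxcr5, 24 with Cx3cr1, 23 with Ccr1, Ccr6 and Ccr9, 21 with Cxcr4, 20 with Ccr2 and 17 with Cxcr3. Over whole coding sequences Ccr1 was 76.0% identical to Ccr1l1 and 61.2% identical to Ccr2, its neighbours on chromosome 9. Of the 50-base windows in the principal Ccr2 transcript, 2.27% also occurred in a transcript of another gene and for no member was the share larger. Cxcr5 shared 2.18% with Bcl9l, whose end overlaps it on the opposite strand, and since counting used no strand, reads in that stretch cannot be told apart. STAR's counts for Ccr2 were 0.965 to 0.992 of RSEM's expected counts and those of the other members 1.00 to 1.12, over all libraries.

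The libraries held 12783252 to 22809401 reads counted on genes. All 11 cDC2 markers examined, among them Cd74, H2-Aa, Itgax, Sirpa, Zbtb46 and Irf4, were present in every group, with a summed level of 70000 to 78300 TPM in young and 111000 to 114000 TPM in adult libraries. Most of this sum was Cd74, H2-Ab1 and H2-Aa, while Sirpa averaged 753, 688 and 470 TPM in young TOM+, young TOM- and adult cells. Markers of cDC1 (6 genes) summed to 198 to 213 TPM in young TOM+, 215 to 230 in young TOM- and 237 to 251 in adult libraries. Most of that sum was Batf3, at 160, 158 and 187 TPM on average, whereas Cadm1 averaged 19.7, 19.7 and 6.54 TPM. TPM, the authors' level corrected for transcript length and scaled to a fixed library total, allows levels of different genes to be compared. Tests were run with edgeR on read counts of the 14452 genes that averaged at least 1 count. Log2 fold changes (log2FC) are on the scale of these counts. A gene was called where the Benjamini-Hochberg adjusted p lay under 0.05 and the log2FC beyond 1 in either direction. Of the cDC2 markers 10 passed the adjusted p in each comparison with adults, 3 higher in young cells (Sirpa, Itgam and Clec10a) and 7 higher in adults. Called were Clec10a, higher in young cells, and Clec4a4, higher in adults. Of the cDC1 markers, Cadm1 was called higher in both young groups than in adults. Gcsam was called higher in young TOM- than in adult cells, and Irf8 higher in adult than in young TOM+ cells.

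Ccr7 was the receptor with the highest level in all 9 libraries, and most of the receptor transcripts were its own. The 9 receptors summed to 456 to 498 TPM in young TOM+ cDC2, 568 to 690 TPM in young TOM- DC2 and 1720 to 2540 TPM in adult TOM+ cDC2. Ccr7 made up 63.0% to 64.7%, 62.9% to 73.1% and 86.9% to 91.5% of these sums.

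**Figure D1:**
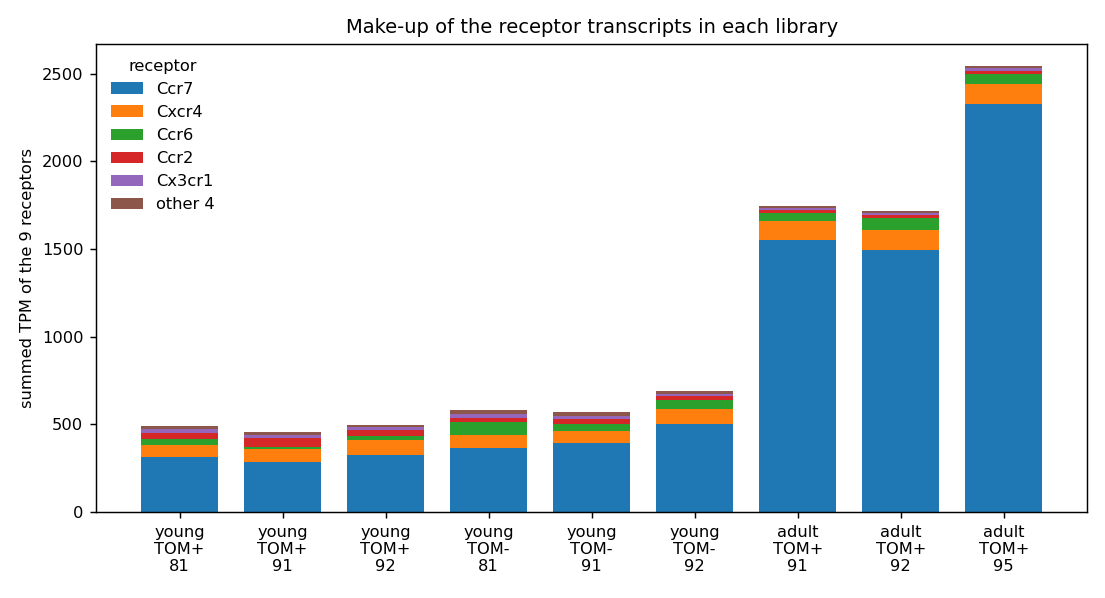
Summed level of the 9 receptors in TPM (vertical axis) in each library (horizontal axis, with group and library number), stacked by receptor, where "other 4" holds Ccr1, Ccr9, Cxcr3 and Cxcr5. Adult libraries reach 1720 to 2540 TPM against at most 690 in young libraries, and the added height is Ccr7.

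Behind Ccr7 came Cxcr4, with 75.5 ± 9.69 TPM (SD, n = 3) in young TOM+, 74.3 ± 6.92 in young TOM- and 113 ± 2.67 in adult cells. In young TOM+ cDC2 the order went on with Ccr2, Ccr6, Cx3cr1, Ccr1, Cxcr3, Ccr9 and Cxcr5, where the ranges of Ccr2 and Ccr6 and those of Ccr6 and Cx3cr1 overlapped and all other neighbours were apart. In young TOM- DC2 Ccr6 moved ahead of Ccr2, its range overlapping that of Cxcr4 above it, and neighbouring ranges also overlapped between Ccr2 and Cx3cr1 and between Ccr1 and Cxcr3. In adult cells the first 5 places, held by Ccr7, Cxcr4, Ccr6, Ccr2 and Cx3cr1, did not overlap with the next, whereas Ccr1, Cxcr5, Ccr9 and Cxcr3 all lay between 2.31 and 2.80 TPM on average and could not be ordered.

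**Figure D2:**
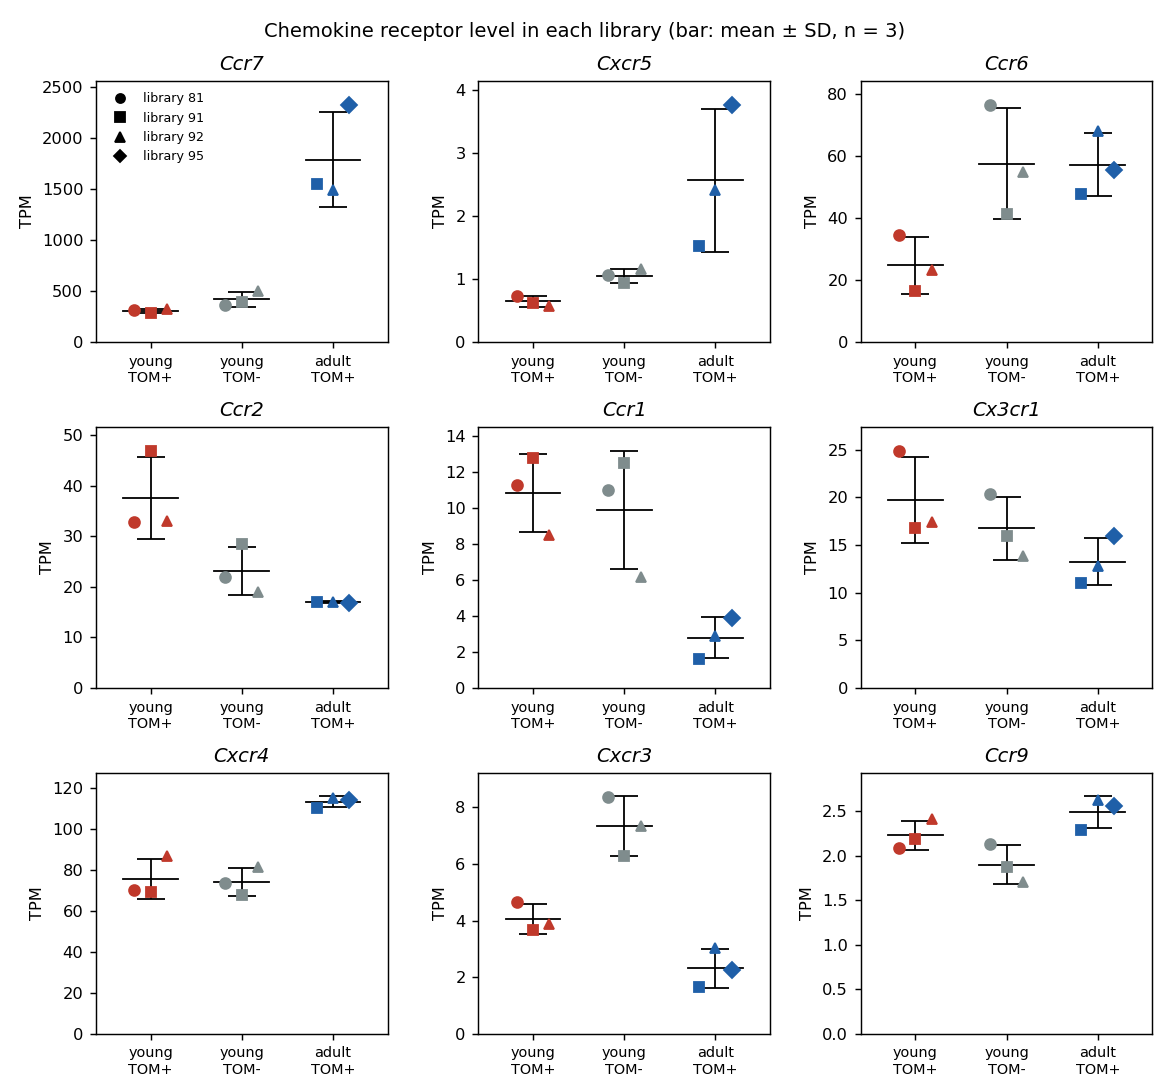
Level of each receptor in TPM (vertical axes, starting at 0 and scaled per gene) in the 3 groups, with a point per library shaped by its number and a bar for mean ± SD (n = 3). Ccr7, Cxcr4 and Cxcr5 are highest in adult libraries, Ccr1 is high in both young groups, Ccr6 is low in young TOM+ libraries and Cxcr3 is highest in young TOM- libraries.

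Between TOM+ cDC2 and TOM- DC2 of 8-day-old mice, the design asks whether cells with and without a Clec9a history differ at the same age. Of the 9 receptors, 1 was called, Ccr6, which was higher in TOM- DC2. Of all tested genes 1.18% were called, 1.16% as higher in TOM- and 0.0208% as higher in TOM+ cells. The other 8 receptors did not pass the adjusted p, which 1.60% of all genes did (1.47% higher in TOM- and 0.125% higher in TOM+ cells). The median log2FC was 0.05 over the receptors and 0 over all genes. A replicate block by library number treated young libraries of the same number as pairs, which the labels do not state. With it 2 receptors passed the adjusted p, Ccr6 and Ccr2, against 2.80% of all genes, and Ccr6 alone was called, against 1.46%. Levels of 6 receptors (Ccr2, Ccr6, Ccr7, Ccr9, Cxcr3 and Cxcr5) did not overlap between the groups in CPM (counts scaled to library size), which held for 16.6% of all tested genes.

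Young and adult TOM+ cDC2 were compared for differences with age within the labelled lineage. There 8 of the 9 receptors passed the adjusted p, 4 higher in young and 4 higher in adult cells, where 40.6% of all genes passed (21.0% higher in young, 19.5% higher in adult cells). Of the receptors 5 were called (12.8% of all genes): Ccr1 and Ccr2 higher in young cells (5.96% of all genes) and Ccr6, Ccr7 and Cxcr5 higher in adult cells (6.86%). Between young TOM- DC2 and the same 3 adult libraries, 6 receptors passed (36.3% of all genes), 2 higher in young cells (19.4%) and 4 higher in adults (16.9%). Of these 4 were called (11.3% of all genes): Ccr1 and Cxcr3 higher in young cells (6.50%) and Ccr7 and Cxcr5 higher in adult cells (4.78%). CPM did not overlap for 8 receptors in the former comparison, against 51.1% of all genes, and for 6 in the latter, against 47.6%. Medians over the receptors were -0.25 and -0.18, and over all genes 0.05 and 0.07. Both comparisons share the adult libraries, so their values are given side by side and are not independent.

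**Figure D3:**
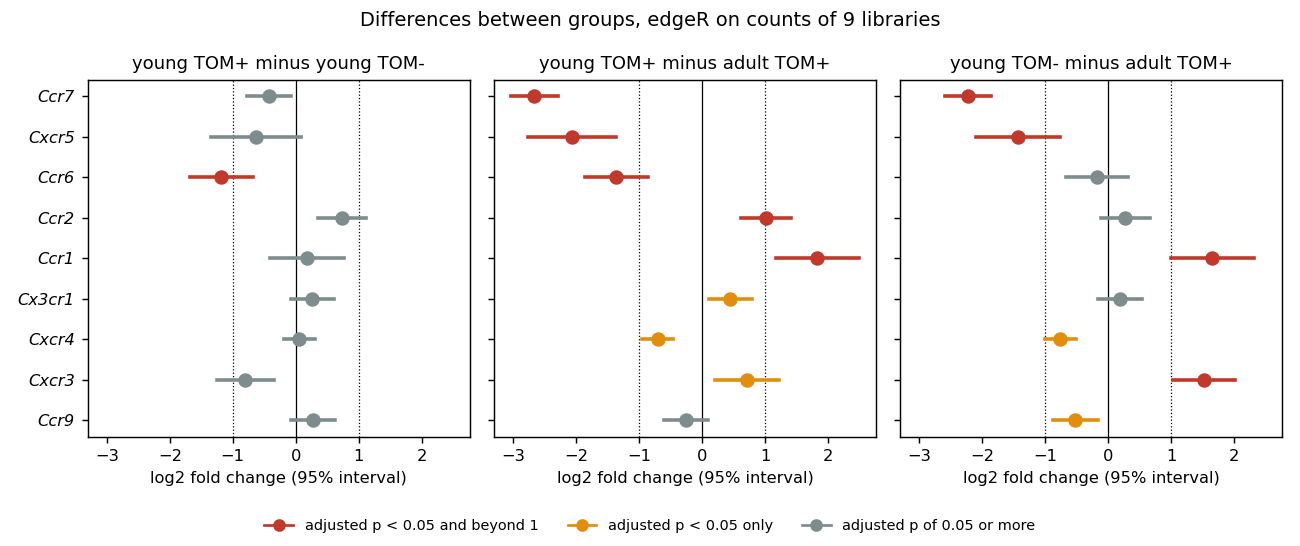
Log2FC of each receptor (horizontal axes, points with 95% intervals from edgeR) in the 3 comparisons, with the group subtracted named above each panel, dotted lines at -1 and 1, and colour for whether the adjusted p and the threshold of 1 were passed. Ccr6 is the receptor called among young cells, while Ccr7 and Cxcr5 lie left of -1 and Ccr1 right of 1 in both comparisons with adults.

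The receptors that guide cells into lymphoid zones, Ccr7 and Cxcr5, were both higher in adult cells than in either young group. Ccr7, on the minus strand of chromosome 11 (99144199 to 99155077 on GRCm38), measured 311, 287 and 322 TPM in young TOM+ libraries 81, 91 and 92, 365, 393 and 504 TPM in young TOM- libraries 81, 91 and 92, and 1549.8, 1493 and 2328 TPM in adult libraries 91, 92 and 95. Every adult library lay far above every young library, and every TOM- library lay a little above every TOM+ library of the same age. Ccr7 was 6.32-fold higher in adult than in young TOM+ cDC2 (log2FC young minus adult -2.66, standard error 0.17, edgeR adjusted p = 5.2e-07) and 4.69-fold higher than in young TOM- DC2 (-2.23, standard error 0.17, edgeR adjusted p = 2.2e-06). The difference among young cells did not pass (log2FC TOM+ minus TOM- -0.43, 95% interval -0.78 to -0.08, edgeR adjusted p = 0.36). In such bulk libraries a smaller share of Ccr7-expressing cells and less Ccr7 RNA in each cell cannot be told apart. Of a list of 10 genes of mature, migratory dendritic cells, 8 were called between young and adult TOM+ cDC2, 7 higher in adult cells like Ccr7 (Cacnb3, Apol7c, Cd200, Il4i1, Socs2, Anxa3 and Samsn1) and Ccl17 higher in young cells. Between young TOM- DC2 and adult cells 7 were called, all higher in adults. The test of Il4i1 rests on 5 to 36 counts. Its deposited TPM, which enter the list's sum, nonetheless averaged 68.9, 89.6 and 240 in young TOM+, young TOM- and adult cells. The list summed to 469 to 588 TPM in young TOM+, 540 to 644 in young TOM- and 1050 to 1650 in adult libraries, and no marker of the list was at 0. Fscn1, a defining marker that bundles actin in mature dendritic cells, was at 136 ± 37.2, 127 ± 25.3 and 172 ± 25.5 TPM and passed only against TOM- DC2 (edgeR adjusted p = 0.032). Whether the share of mature cells set the Ccr7 level was not tested.

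Cxcr5, on the minus strand of chromosome 9 (44511787 to 44526444), was the least expressed member in young cells, with 0.74, 0.62 and 0.58 TPM in TOM+ libraries and 1.07, 0.94 and 1.16 TPM in TOM- libraries 81, 91 and 92, and rose to 1.52, 2.42 and 3.77 TPM in adult libraries 91, 92 and 95. These levels rest on 18 to 96 counts per library. The 3 groups did not overlap, and the adult libraries were the most spread. Cxcr5 was 4.17-fold higher in adult than in young TOM+ cDC2 (log2FC young minus adult -2.06, standard error 0.32, edgeR adjusted p = 0.00028) and 2.70-fold higher than in young TOM- DC2 (-1.43, standard error 0.31, edgeR adjusted p = 0.003). Between the young groups it did not pass (log2FC TOM+ minus TOM- -0.63, 95% interval -1.35 to 0.09, edgeR adjusted p = 0.64). CXCR5 is best known from B cells, and the B cell markers Ms4a1 and Fcer2a were called higher in adult than in young TOM+ cells. Ms4a1, a membrane protein gene of mature B cells, was at 2.46, 7.80 and 16.9 TPM on average in young TOM+, young TOM- and adult cells, whereas on average Cd79a stayed at or below 0.930 TPM and Pax5, the factor that defines B cells, at or below 0.0400 TPM. The list of B cell markers summed to 61.7 to 71.4, 76.9 to 89.2 and 43.8 to 57.0 TPM, most of it Cd79b. The part of B cell RNA in Cxcr5 was not tested.

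Ccr6, the receptor of CCL20 that is also known from lymphoid tissue inducer cells and B cells, was called between young TOM+ cDC2 and each of the other groups. It lies on the plus strand of chromosome 17 (8236041 to 8258519) and measured 34.6, 16.6 and 23.2 TPM in young TOM+ libraries 81, 91 and 92, 76.7, 41.3 and 55.0 TPM in young TOM- libraries of the same numbers, and 48.0, 68.2 and 55.6 TPM in adult libraries 91, 92 and 95. The TOM+ young libraries were all below the others, and within both young groups library 81 was highest and library 91 lowest. Ccr6 was 2.27-fold higher in young TOM- than in young TOM+ cells (log2FC TOM+ minus TOM- -1.18, standard error 0.23, edgeR adjusted p = 0.02) and 2.57-fold higher in adult than in young TOM+ cells (log2FC young minus adult -1.36, standard error 0.23, edgeR adjusted p = 0.00055). Young TOM- and adult cells had overlapping levels (log2FC -0.18, 95% interval -0.67 to 0.31, edgeR adjusted p = 0.56). Within pairs of young libraries with the same number, the log2 difference TOM+ minus TOM- was -1.08, -1.23 and -1.23, and with the pairs as a block the standard error fell to 0.13 (log2FC -1.20, edgeR adjusted p = 0.00011). Without the block, the call among young cells was lost on leaving out TOM+ library 91 (edgeR adjusted p = 0.081), TOM+ library 92 (0.099), TOM- library 81 (0.057) or TOM- library 92 (0.077).

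Among markers of type 3 innate lymphoid cells, Il1r1, the receptor of interleukin-1, moved with Ccr6 among young cells. It measured 0.15, 0.31 and 0.26 TPM in young TOM+ and 3.57, 4.02 and 4.15 TPM in young TOM- libraries 81, 91 and 92, and 0.09, 0.06 and 0.11 TPM in adult libraries 91, 92 and 95. Il1r1 was called higher in TOM- than in TOM+ young cells (log2FC TOM+ minus TOM- -4.00, standard error 0.26, edgeR adjusted p = 7.4e-06). Il7r, a marker gene of innate lymphoid cells, was at 3.27, 5.19 and 3.91 TPM on average and did not pass between the young groups (edgeR adjusted p = 0.12). Il22 and Il17a, the cytokines of these cells, were at 0 in all libraries, and Thy1 averaged at most 0.110 TPM in any group. Of the B cell markers, Ms4a1 and Fcer2a were called higher in TOM- than in young TOM+ cells. In adult cells, where Ccr6 was as high as in TOM- DC2, Il1r1 averaged 0.0867 TPM, Ms4a1 16.9 TPM and Fcer2a 2.64 TPM. The part of other cells in the Ccr6 difference among young cells was not tested.

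**Figure D4:**
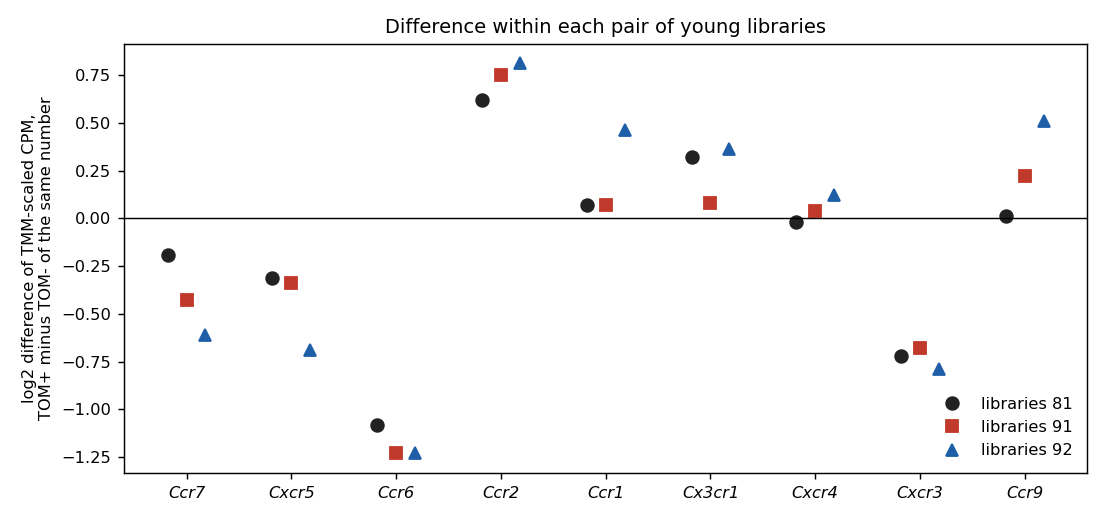
Log2 difference of TMM-scaled CPM between the TOM+ and the TOM- library of the same number (vertical axis) for each receptor (horizontal axis), with a point per pair of young libraries. Ccr6 lies between -1.23 and -1.08, Cxcr3 between -0.79 and -0.68 and Ccr2 between 0.62 and 0.81 in the 3 pairs.

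Ccr2, which draws monocytes and dendritic cell precursors toward CCL2, was highest in young TOM+ cDC2. From the plus strand of chromosome 9 (124101918 to 124109140) it gave 32.8, 47.0 and 33.1 TPM in TOM+ and 21.9, 28.4 and 19.0 TPM in TOM- libraries 81, 91 and 92, and 17.1, 17.1 and 16.8 TPM in adult libraries 91, 92 and 95. All TOM+ young libraries were above all others, library 91 was the highest of both young groups, and adult libraries were nearly equal. Ccr2 was 2.01-fold higher in young than in adult TOM+ cDC2, a log2FC of 1.01 that lies just past the threshold of 1 (standard error 0.18, edgeR adjusted p = 0.00081). It was 0.79 without young TOM+ library 91, 0.99 without young TOM- library 92 and 0.97 without adult library 95, each under the threshold of 1 with an edgeR adjusted p of at most 0.0053. Against TOM- DC2 the log2FC of 0.74 (95% interval 0.35 to 1.12) did not pass without the block (edgeR adjusted p = 0.072) and passed with it (log2FC 0.73, standard error 0.08, edgeR adjusted p = 0.00012), the pairs 81, 91 and 92 giving 0.62, 0.75 and 0.81. It also passed without TOM+ library 81 (edgeR adjusted p = 0.03) or TOM- library 91 (0.019). Between young TOM- and adult cells CPM overlapped while TPM lay slightly higher in TOM- libraries (log2FC 0.27, 95% interval -0.12 to 0.67, edgeR adjusted p = 0.26).

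Ccr1, a receptor for CCL3, CCL5 and CCL6 that neighbours Ccr2 on chromosome 9 (123962126 to 123968692, minus strand), was high in both young groups. It measured 11.3, 12.8 and 8.52 TPM in young TOM+ libraries, 11.0, 12.5 and 6.18 TPM in young TOM- libraries 81, 91 and 92, and 1.59, 2.91 and 3.89 TPM in adult libraries 91, 92 and 95. The young groups overlapped throughout and both lay above all adult libraries. Ccr1 was 3.55-fold higher in young than in adult TOM+ cDC2 (log2FC 1.83, standard error 0.30, edgeR adjusted p = 0.00046) and 3.14-fold higher in young TOM- DC2 than in adult cells (1.65, standard error 0.31, edgeR adjusted p = 0.0012). Among young cells the log2FC was 0.18 (95% interval -0.41 to 0.76, edgeR adjusted p = 0.94).

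Cx3cr1, the receptor of the membrane-bound chemokine CX3CL1, on the minus strand of chromosome 9 (120048683 to 120068296), measured 24.9, 16.8 and 17.5 TPM in young TOM+ libraries, 20.4, 16.0 and 13.9 TPM in young TOM- libraries 81, 91 and 92, and 11.0, 12.8 and 15.9 TPM in adult libraries 91, 92 and 95. Library 81 was highest in both young groups, and young TOM- and adult libraries overlapped. Cx3cr1 passed between young and adult TOM+ cDC2 (log2FC 0.45, standard error 0.16, edgeR adjusted p = 0.039), but its edgeR adjusted p was 0.15 without young TOM+ library 81, 0.056 without young TOM+ library 92, 0.052 without young TOM- library 91, 0.14 without adult library 91 and 0.095 without adult library 92. The log2FC was 0.26 between the young groups (95% interval -0.07 to 0.60, edgeR adjusted p = 0.69) and 0.19 between young TOM- and adult cells (95% interval -0.16 to 0.53, edgeR adjusted p = 0.38).

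Ccr1, Ccr2 and Cx3cr1 are also receptors of monocytes, macrophages and neutrophils. Of 7 monocyte markers 1 was called between young and adult TOM+ cells, Ms4a4c, higher in adults. Between young TOM- and adult cells 1 was called, Fn1, higher in young cells (log2FC 3.11, standard error 0.97, edgeR adjusted p = 0.025), on 124, 7 and 107 counts in TOM- libraries 81, 91 and 92 and 0, 12 and 7 counts in adult libraries 91, 92 and 95. The list summed to 133 to 141, 160 to 174 and 259 to 282 TPM in young TOM+, young TOM- and adult libraries, while the defining markers Ly6c2, F13a1 and Vcan stayed at or below 1.22, 0.147 and 0.0400 TPM on average. Of 6 macrophage markers in the files, 1 was called higher in young than in adult TOM+ cells (Hmox1) and 3 higher in young TOM- than in adult cells, with sums of 154 to 198, 248 to 303 and 86.3 to 128 TPM. Of 6 neutrophil markers in the files, none was called between young and adult TOM+ cells (edgeR, 5 tested, 0 at an unadjusted p under 0.05) and 2 were called higher in young TOM- than in adult cells (Mpo and Ngp), with sums of 0.44 to 1.01, 0.47 to 32.8 and 0.05 to 0.34 TPM. The upper end in TOM- DC2 came from library 81 alone, where Ngp had 149 counts against 1 and 0 in TOM- libraries 91 and 92, and S100a8 had 23 counts against 0 in both. Ccr2 and Cx3cr1 are known from ESAMlow cDC2 as well. The 5 ESAMlow markers summed to 1710 to 2540, 1820 to 3050 and 1850 to 2340 TPM. Most of this was Lyz2, at 1780, 2100 and 1900 TPM on average. Of the 5, 4 passed the adjusted p between young and adult TOM+ cells. Csf1r was higher in young cells, whereas Csf3r, Cd14 and Clec12a were higher in adults, and of these Csf3r was called. The 6 ESAMhigh markers summed to 318 to 436, 386 to 508 and 767 to 793 TPM. Among them 4, Esam itself included, were called higher in adult than in young TOM+ cells. The part of these cells in the receptor levels was not tested.

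Cxcr4, on the minus strand of chromosome 1 (128588199 to 128592299), ranked next to Ccr7 in level. It measured 70.5, 69.4 and 86.7 TPM in young TOM+ libraries, 73.7, 67.7 and 81.5 TPM in young TOM- libraries 81, 91 and 92, and 110.3, 115 and 114 TPM in adult libraries 91, 92 and 95. The young groups overlapped fully and the adult libraries lay above all of them within a narrow range. Cxcr4 was 1.63-fold higher in adult than in young TOM+ cDC2 (log2FC young minus adult -0.70, standard error 0.11, edgeR adjusted p = 0.00036) and 1.69-fold higher than in young TOM- DC2 (-0.76, standard error 0.11, edgeR adjusted p = 0.00026), passing the adjusted p without reaching a log2FC of 1. Among young cells the log2FC of 0.05 had a 95% interval of -0.19 to 0.30 (edgeR adjusted p = 0.96), the narrowest of the 9 members.

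Cxcr3, which leads cells to sites of interferon-induced CXCL9 and CXCL10, was highest in young TOM- DC2. From the minus strand of chromosome X (101731535 to 101734147) it gave 4.65, 3.65 and 3.89 TPM in young TOM+ and 8.38, 6.27 and 7.36 TPM in young TOM- libraries 81, 91 and 92, and 1.64, 3.03 and 2.27 TPM in adult libraries 91, 92 and 95. The groups did not overlap, with TOM- above TOM+ young libraries and those above adults. Cxcr3 was 2.87-fold higher in young TOM- than in adult cells (log2FC 1.52, standard error 0.23, edgeR adjusted p = 0.00026). Between young and adult TOM+ cells it passed the adjusted p at a log2FC of 0.72 (standard error 0.23, edgeR adjusted p = 0.027), which was not so without young TOM+ library 81 (0.07) or 92 (0.064), adult library 91 (0.095) or 95 (0.074), or when only these 2 groups were fitted (0.052). Between the young groups the log2FC of -0.80 (95% interval -1.25 to -0.35) did not pass with edgeR (adjusted p = 0.098, and 0.055 with the block), though each pair leaned the same way, by -0.72, -0.68 and -0.79. CXCR3 is best known from T and NK cells. Of 6 T cell markers in the files, 1, Lck, was called higher in young TOM- than in adult cells. The list summed to 27.6 to 28.4, 38.2 to 39.8 and 21.6 to 32.0 TPM, most of it Cd5 (25.2, 35.3 and 26.3 TPM on average). Cd3e stayed at or below 0.667 TPM on average. None of 3 tested NK cell markers, of 6 listed, was called in any comparison (edgeR, 0 at an unadjusted p under 0.05), and Ncr1 and Eomes, which define these cells, stayed at or below 0.157 and 0.0167 TPM. The part of such cells in Cxcr3 was not tested.

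Ccr9, the receptor of CCL25 known from gut-homing lymphocytes and plasmacytoid dendritic cells, on the plus strand of chromosome 9 (123767211 to 123783457), measured 2.09, 2.19 and 2.41 TPM in young TOM+, 2.13, 1.87 and 1.70 TPM in young TOM- libraries 81, 91 and 92, and 2.29, 2.62 and 2.56 TPM in adult libraries 91, 92 and 95. Its levels lay within a narrow range in all libraries, with TOM- libraries 91 and 92 lowest. It passed between young TOM- and adult cells, at a log2FC of -0.53 (standard error 0.16, edgeR adjusted p = 0.024) that was no longer past the threshold without TOM- library 91 (0.053) or 92 (0.075) or adult library 92 (0.07). The log2FC was -0.25 between young and adult TOM+ cells (95% interval -0.60 to 0.10, edgeR adjusted p = 0.24) and 0.28 between the young groups (95% interval -0.07 to 0.63, edgeR adjusted p = 0.69). The 6 plasmacytoid markers summed to 103 to 108, 109 to 114 and 120 to 162 TPM, and none of the 5 tested was called in any comparison with edgeR. At an unadjusted p under 0.05 there were 1 between the young groups, 1 between young and adult TOM+ cells and 3 between young TOM- and adult cells, and Bst2 passed the adjusted p in both comparisons with adults.

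Of the 9 members, 5 lie on chromosome 9, where Ccr9, Ccr1 and Ccr2 are near the receptor genes Cxcr6, Xcr1, Ccr1l1 and Ccr3. Ccr1 and Ccr2 were both called higher in young than in adult TOM+ cDC2. Ccr9, Cxcr6 and Xcr1 did not pass in that comparison, with log2FC of -0.25, -0.79 and 0.24 (edgeR adjusted p of 0.24, 0.56 and 0.39). Xcr1, the cDC1 receptor, was at 3.30, 3.21 and 2.64 TPM on average in young TOM+, young TOM- and adult cells, and Ccr1l1, Ccr3 and Cxcr6 were below 0.4 TPM in every group.

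Promoters were read for 7 of the 9 members from RefSeq starts on GRCm38.p6, and those of Ccr6 and Ccr1 are shown because Ccr6 was called between the young groups and Ccr1 changed most among the receptors higher in young cells. Each line holds the 250 bases before the start, 5′ to 3′ on the strand of the gene, with matches in capitals to AGGTCA (nuclear receptor half-site), TGTGGT (RUNX), TGACTCA (AP-1), GAGGAA (ETS factors of the PU.1 type) or CACGTG (E-box), searched on both strands.
Ccr6, chr17:8235793-8236042, plus strand: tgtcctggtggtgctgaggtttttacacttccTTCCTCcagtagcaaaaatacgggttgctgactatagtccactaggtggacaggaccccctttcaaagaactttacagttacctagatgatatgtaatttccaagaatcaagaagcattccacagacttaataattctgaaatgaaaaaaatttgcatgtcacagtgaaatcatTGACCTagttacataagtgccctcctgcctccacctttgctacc
Ccr1, chr9:123968693-123968942, minus strand: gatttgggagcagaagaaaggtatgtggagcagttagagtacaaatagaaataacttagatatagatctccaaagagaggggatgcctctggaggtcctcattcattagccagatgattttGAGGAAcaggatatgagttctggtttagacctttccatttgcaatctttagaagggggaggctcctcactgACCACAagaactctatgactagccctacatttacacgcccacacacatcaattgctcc
The Ccr6 window held AGGTCA and GAGGAA, both on the opposite strand, starting 44 and 218 bases before the start, and the Ccr1 window held GAGGAA at 129 bases on the same strand and TGTGGT at 58 bases on the opposite strand. Among 32851 promoters of the same length 14.0% held AGGTCA, 14.0% TGTGGT, 23.3% GAGGAA, 4.46% TGACTCA and 6.02% CACGTG. Cxcr3 held TGTGGT and GAGGAA, Cx3cr1 held TGTGGT, and the windows of Ccr2, Ccr9, Cxcr4 and the other start of Ccr6 held none of the letters searched. These matches are descriptions of the letters and were not tied to any measured binding.

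Of 15 other chemokine receptors, 11 were tested, and none passed between the young groups (edgeR, 2 at an unadjusted p under 0.05). Between young and adult TOM+ cDC2 Ccrl2 and Ackr1 were called higher in adults. Ccrl2, an atypical receptor that presents chemerin without signalling and had the highest level of the list, measured 212, 165 and 190.2 TPM in young TOM+, 252, 210.4 and 277 TPM in young TOM- libraries 81, 91 and 92, and 546, 510.1 and 461 TPM in adult libraries 91, 92 and 95. Adult libraries were all above young ones, and Ccrl2 was called against both young groups (log2FC young minus adult -1.55 for TOM+ and -1.19 for TOM-, standard error 0.12 for each, edgeR adjusted p = 1.6e-06 and 1.4e-05). Ackr1, an atypical receptor that binds many chemokines, went from 2.34 ± 0.439 and 2.83 ± 0.824 TPM in young TOM+ and TOM- cells to 7.04 ± 1.30 TPM in adults (log2FC -1.69 and -1.46, edgeR adjusted p = 0.00032 and 0.001). Ackr3, a scavenger of CXCL12, had 58, 65 and 112 counts in young TOM- libraries 81, 91 and 92, 27, 0 and 1 counts in young TOM+ libraries of the same numbers and 0 counts in all adult libraries, and was called between TOM- DC2 and adult cells (edgeR adjusted p = 0.002). A zero allows up to 3 counts per library by counting error alone. Ccr4 was listed at 0 in every library.

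Ligands of the members were examined in the same cells, since dendritic cells make several of them. Of 19 ligand genes, 16 were tested. Between young and adult TOM+ cDC2, 7 passed (40.6% of all genes did), 6 higher in adults (Ccl2, Ccl3, Ccl4, Ccl5, Cxcl9 and Cxcl10, of which Ccl2 was not called) and Ccl6 higher in young cells. Between young TOM- DC2 and adults 7 passed as well (36.3% of all genes did), 5 higher in adults and 2, Ccl6 and Cx3cl1, higher in young cells. Between the young groups Ccl5 and Cx3cl1 passed, both higher in TOM- DC2. Ccl4, with the highest level of the list, was at 747 ± 54.8, 1130 ± 308 and 1780 ± 330 TPM in young TOM+, young TOM- and adult cells, and Ccl5, a ligand of CCR1, at 247 ± 35.3, 400 ± 23.7 and 932 ± 97.2 TPM (log2FC young minus adult TOM+ -2.04, standard error 0.12, edgeR adjusted p = 3.3e-07). Cxcl9 and Cxcl10, the CXCR3 ligands, were higher in adult than in young TOM+ cells by log2FC of 2.28 and 1.24 (standard errors 0.14 and 0.12, edgeR adjusted p = 3.3e-07 and 9.5e-06), whereas Cxcr3 itself was lower in adults. Cx3cl1 measured 0.50, 0.48 and 0.70 TPM in young TOM+ and 2.44, 5.30 and 4.67 TPM in young TOM- libraries 81, 91 and 92, and 0.35, 0.44 and 0.50 TPM in adult libraries 91, 92 and 95. It was called higher in TOM- DC2 than in both other groups, by log2FC of 2.87 over young TOM+ (standard error 0.33, edgeR adjusted p = 0.00045) and 3.13 over adult cells (standard error 0.36, edgeR adjusted p = 3.8e-05). Ccl20, the CCR6 ligand, had a single read in 1 young TOM+ library and none in the others, and Ccl25 and Cxcl13 averaged at most 3.19 and 0.423 TPM in any group.

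**Figure D5:**
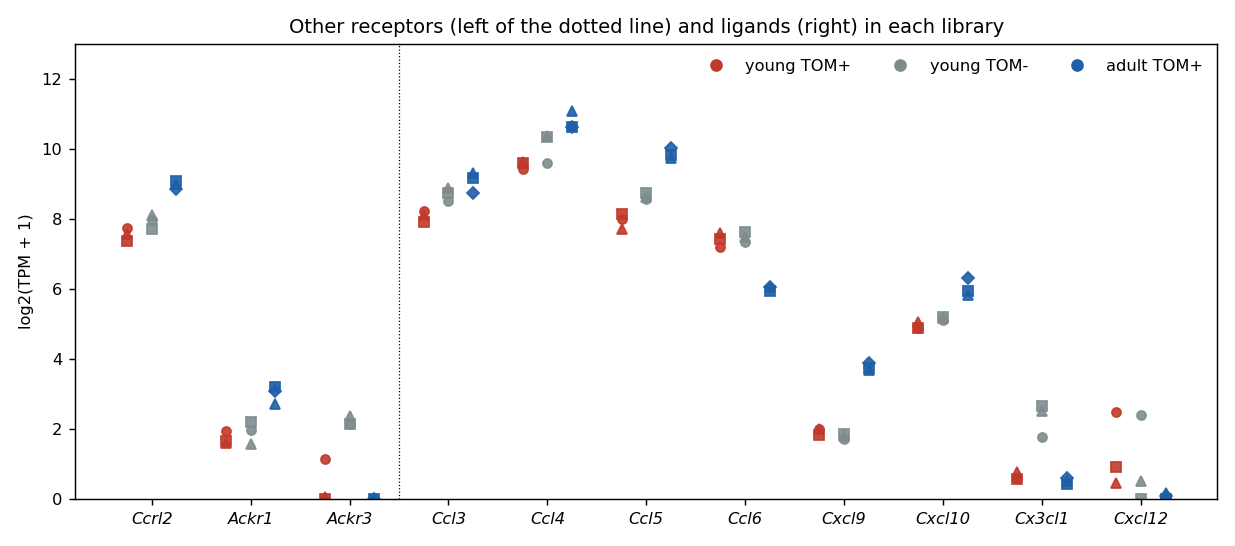
Level as log2(TPM + 1) (vertical axis) of 3 other receptors and 8 ligand genes in each library, coloured by group, with marker shapes for the library number as in the plot of receptor levels. Ccrl2, Ccl5, Cxcl9 and Cxcl10 are higher in adult libraries, Ccl6 is higher in young ones, and Ackr3 and Cx3cl1 are highest in young TOM- libraries.

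Of 45 genes listed that act behind the receptors (G protein subunits, receptor kinases, arrestins, RGS proteins and the machinery of cell polarity), 44 were tested and none passed between the young groups (edgeR, 4 at an unadjusted p under 0.05). Between young and adult TOM+ cDC2 22 passed, 9 higher in young and 13 higher in adult cells, and 4 were called, where 40.6% of all genes passed and 12.8% were called. Rgs1, which ends Gi signalling, was 782 ± 373 TPM in young and 2270 ± 695 TPM in adult TOM+ cells (log2FC -1.69, standard error 0.31, edgeR adjusted p = 0.00097), and the receptor kinase Grk5 was 2.15 ± 0.546 and 4.38 ± 0.296 TPM (log2FC -1.17, edgeR adjusted p = 0.00025). Tiam1, an activator of Rac, was 8.10 ± 0.371 and 1.13 ± 0.419 TPM (log2FC 2.70, standard error 0.19, edgeR adjusted p = 9.6e-07), and Rgs16 was called on 1 to 17 counts per library (log2FC 2.54, edgeR adjusted p = 0.0076). Gnai2, the Gi subunit with the highest level, passed at a log2FC of 0.40 (edgeR adjusted p = 0.0012), higher in young cells. Between young TOM- DC2 and adults 22 passed and 3 were called, against 36.3% and 11.3% of all genes, with Rgs1 higher in adults and Tiam1 and Rgs16 higher in young cells.

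For each called receptor the 3 genes with the nearest profile over the 9 libraries were taken from 10112 genes averaging 50 counts or more. The measure was the root mean square (RMS) difference of centred log2 CPM. Ccr7 was followed most closely by Tbc1d30 (RMS 0.214), the inhibitory receptor gene Lag3 (0.219) and Cacnb3 (0.229), which encodes a calcium channel subunit. The RMS of the centred values of Ccr7 itself over the libraries was 1.18. Lag3 averaged 1.25, 2.11 and 9.36 TPM in young TOM+, young TOM- and adult cells. Nearest to Cxcr5 came Socs2 (0.173), A930013F10Rik (0.187) and the bicarbonate transporter gene Slc4a8 (0.189). Ppm1l (0.251), Appl2 (0.285) and Stau2 (0.286) were nearest to Ccr6, and Appl2, an endosomal adaptor, averaged 14.4, 25.6 and 24.9 TPM. Klra17 (0.185), Ybx3 (0.191) and the nucleotide receptor gene P2ry6 (0.192) were nearest to Ccr2, and Tfap4 (0.261), Cav2 (0.301) and P2ry14 (0.303) to Ccr1. Pparg, a lipid-sensing nuclear receptor gene, was nearest to Cxcr3 (0.191) at 3.05, 5.03 and 1.62 TPM, before Sema4b (0.215) and Atp13a2 (0.234). These likenesses rest on 9 libraries in 3 groups and describe shared group differences.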

How the data were processed

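The 9 libraries hold mRNA of sorted spleen cells and were grouped by the cell type, age and sort gate in the labels. The authors copied RNA with the SMARTseq v4 kit, sequenced 50-base single-end reads and aligned them to mm10 with STAR. The authors deposited STAR's counts of reads per gene, with no normalization, and RSEM's expected counts, TPM and FPKM. The unstranded counts were tested, since the kit keeps no strand, and genes that overlap on either strand are uncertain. Between 26.1% and 31.6% of reads were not counted on a gene and entered neither library sizes nor tests. They were unmapped, mapped to several places, lay on no gene or were ambiguous between genes. The deposited TPM give levels, expected counts were rounded for an alternative, and the FPKM the authors deposited were not used.

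Counts of genes averaging at least 1 were tested in R 4.3.3 with edgeR 4.0.16 (quasi-likelihood, TMM, all 9 libraries in 3 groups, Benjamini-Hochberg over 14452 genes). DESeq2 1.42.0 with and without apeglm 1.24.0 and limma 3.58.1 were alternatives. The gene tests were tested on simulated data. The receptors and gene lists were chosen with earlier results of these data known. Named genes are the 9 members, genes of the other lists that were called or had the highest level, and the 3 nearest profiles of each called member, with marker genes and chromosome 9 neighbours named beside them for their values. The lowest chi-square per gene between libraries of a group was 7.36, so no pair of libraries looked like copies. The number in the deposited names was taken to pair the young libraries, which the labels do not state. Deviations from the group mean in TOM+ and TOM- libraries of the same number correlated over genes at 0.500 (81), 0.179 (91) and 0.330 (92). For unlike numbers the values ran from -0.409 to 0.185. The highest, TOM+ library 92 with TOM- library 91, lay above the value for number 91. The values thus set 81 apart and do not settle whether libraries 91 and 92 are pairs. Reads were amplified without molecular identifiers, so that floors cover counting error only. GENCODE and RefSeq on GRCm38, whose coordinates are those of mm10, gave positions and sequences. Promoters of Ccr7 and Cxcr5 and protein sequences were not used here, and some genes of the lists are not reported here.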

Additional observations from a re-analysis of the deposited data

How the results depend on the processing

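The 9 receptors were each followed through 3 comparisons under 21 other settings: other normalization factors, filters and tools, expected counts, fits of only the groups compared, the replicate block, and each library left out. No receptor reversed its direction past a threshold. Outside counts of calls, 527 values stayed on their side of the adjusted p, 10 newly passed it and 30 no longer did, the latter all for Ccr6 among young cells, Cx3cr1 or Cxcr3 between young and adult TOM+ cDC2, or Ccr9 between young TOM- and adult cells. Among young cells, 0 receptors were called by limma on log2(TPM + 1) and log2(TPM + 0.1) and when only these 2 groups were fitted, and 0 to 1 with each library left out. The adjusted p was passed by 0 receptors in the same 3 settings, 2 (Ccr2 and Ccr6) with no filter or with the replicate block, 3 (also Cxcr3) by DESeq2 with and without apeglm, and 0 to 2 with each library left out. In edgeR without the block, 4 of the 9 receptors had an unadjusted p under 0.05 there. The replicate block moved the receptors past the adjusted p from 1 to 2 and changed no other call among young cells. Numbers 91 and 92 also occur in adults, but deviations of same-numbered young and adult libraries correlated at -0.002 to 0.041, so they were not taken as pairs. With that block, Ccr2 and Ccr6 passed between young TOM- and adult cells (log2FC 0.31 and -0.44, edgeR adjusted p = 0.04 and 7e-04) and Cxcr3 did not between young and adult TOM+ cells (0.06). Limma on log2(TPM + 1) called 1122 genes between young and adult TOM+ cells against 1853, and 986 against 1631 for TOM- DC2, and gave Cxcr5, which lies near the added 1, a log2FC of -1.07 in place of -2.06 between young and adult TOM+ cells and -0.75 in place of -1.43 (adjusted p = 0.015) for TOM- DC2, where Cxcr5 was then no longer called and 3 receptors were called in place of 4. Ccr2 between young and adult TOM+ cells lay under the log2FC of 1 with DESeq2 size factors in edgeR (0.99), a minimum average count of 10 (0.98), DESeq2 (0.99, and 0.94 with apeglm) and expected counts (0.99). Limma on log2(TPM + 0.1) moved the median of all genes to 0.17 and 0.22, and the share of called genes that were higher in young cells from 46.5% to 57.4% and from 57.6% to 70.3%. Leaving out both young libraries numbered 81, chosen after seeing the data, took Cx3cr1 and Cxcr3 between young and adult TOM+ cells to edgeR adjusted p of 0.15 and 0.085. Cxcr5, at 18 to 96 counts, had the widest interval of the receptors among young cells.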

Other observations

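Cxcl12, which encodes the ligand of CXCR4 and is made mainly by stromal cells, was not called in any comparison and is described here because its libraries were seen to differ. It had 115 counts in young TOM+ library 81 and 80 counts in young TOM- library 81, against 17 and 10 counts in TOM+ libraries 91 and 92, 0 and 12 counts in TOM- libraries 91 and 92, and 0, 3 and 1 counts in adult libraries 91, 92 and 95. The libraries numbered 81 were thus the highest of both young groups. Rgs1 was highest in the same libraries, at 1212 TPM in TOM+ and 1191 TPM in TOM- library 81 against 545 to 638 TPM in the other 4 young libraries, and among TOM+ young libraries Ackr3 had 27 counts in library 81 and at most 1 in the others. Among the 9 receptors, Ccr6, Cx3cr1 and Cxcr3 were highest in library 81 within both young groups, while Ccr2, Ccr1, Ccr7 and Cxcr4 were not.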
